A study of Homo sapiens with 6 samples.

Results

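The 33 genes described here encode enzymes of nucleotide synthesis and salvage, with 1 nucleoside transporter. They were taken by gene name from a named list, and each matched 1 of the 38170 entries of the deposited table. All 33 had enough counts to be tested. They were read in RNA of A549, a line grown from a human lung adenocarcinoma, sequenced as 3 libraries with LOC401312 overexpression and 3 libraries with an empty vector. LOC401312 is a long non-coding RNA that was put into the cells with piggyBac, a transposon that carries a transgene into chromosomes, and per the series title the study links it to radiosensitivity and to the enzyme CPS1. No treatment is labelled, irradiation included, and the labels do not say whether the cells are pools or clones or whether the libraries are separate cultures, so the p-values rest on library-to-library spread that may be technical. In LOC401312 replicates 2 and 3 the genotype label names LOC401313 and LOC401314, against the titles. LOC401312 has no entry of its own, and the STEAP1B entry, which covers its RefSeq span but for the outermost bases, held 94628, 92527 and 90297 counts in the LOC401312 libraries and 9, 11 and 23 counts in the vector libraries.

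The libraries held 65823845 to 70202062 counts with LOC401312 and 60971105 to 73994619 counts with vector. All 13 A549 and epithelial markers were detected, with a summed level of 21915 to 22897 CPM (counts scaled to a common library total) in LOC401312 and 23670 to 25498 CPM in vector. By the tests described below, 7 of the 13 were called lower in LOC401312 and 2 higher. Over all features 4.58% were called lower and 4.13% higher. Transcripts that mark other cell types were found at levels that differed between libraries. Whether other cells or the A549 cells made them was not tested. The 22 placental markers summed to 38.8, 153 and 139 CPM in LOC401312 replicates 1, 2 and 3, against 39.2 to 41.8 CPM in vector. The 13 urothelial and squamous markers summed to 32.4 to 35.9 CPM in LOC401312 and 43.6 to 45.3 CPM in vector, with the keratin KRT13 at 5, 0 and 0 counts in LOC401312 against 338, 253 and 286 counts in vector. The 14 fibroblast, blood and endothelial markers summed to 23.1 to 25.8 CPM in LOC401312 and 41.1 to 89.9 CPM in vector. The part of these transcripts in the results below was not tested, apart from the values given without LOC401312 replicates 2 and 3.

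Cells build nucleotides de novo from amino acids, carbon dioxide and folate carbons, or recover them by salvage of free bases and nucleosides. In the pyrimidine route the trifunctional protein CAD makes carbamoyl phosphate in the cytosol and carries it to dihydroorotate, DHODH oxidises that in mitochondria, UMPS completes UMP, and CTPS1 and CTPS2 aminate UTP to CTP. In the purine route the ring is built on phosphoribosyl pyrophosphate, which PRPS1 and PRPS2 supply, up to IMP, from which IMPDH1, IMPDH2 and GMPS make GMP. Ribonucleotide reductase turns ribonucleotides into deoxynucleotides for DNA. CPS1 makes carbamoyl phosphate too, but in mitochondria and for the urea cycle in liver, and lung cancer cells that lack the kinase LKB1, as A549 cells do, are known to express it.

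RefSeq promoter windows, in build GRCh38.p14, matched 31 of the 33 genes. 4 stretches are shown because they belong to genes the results turn on, or to neighbours whose values are set side by side. PPAT and PAICS, the enzymes of the first and of a middle step of purine synthesis, start on opposite strands with 136 bases between them, so that 1 stretch of chromosome 4 leads to both. It is given on the plus strand, chr4:56435616-56435751, with its 3 GC boxes (GGGCGG, either strand) in capitals. The stretches of ATIC (chr2:215311809-215312058, plus strand) and SLC29A1 (chr6:44219365-44219614, plus strand) are the 250 bases before a RefSeq start, with the E-box CACGTG in capitals. For DUT, 30 bases before 1 of its RefSeq starts (chr15:48332152-48332181, plus strand) are shown with TTTCCCGC and TTTGGCGC, letters of E2F sites, in capitals as they read on the plus strand (the first is on the minus strand).
PPAT-PAICS: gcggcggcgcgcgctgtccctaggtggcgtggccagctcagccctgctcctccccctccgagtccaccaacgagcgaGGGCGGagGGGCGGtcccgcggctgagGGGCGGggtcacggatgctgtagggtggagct
ATIC: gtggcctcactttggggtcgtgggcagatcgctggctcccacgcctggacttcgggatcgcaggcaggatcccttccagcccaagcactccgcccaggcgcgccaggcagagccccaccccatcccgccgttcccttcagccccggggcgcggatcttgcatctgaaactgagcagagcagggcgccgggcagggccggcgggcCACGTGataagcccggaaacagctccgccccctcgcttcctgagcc
SLC29A1: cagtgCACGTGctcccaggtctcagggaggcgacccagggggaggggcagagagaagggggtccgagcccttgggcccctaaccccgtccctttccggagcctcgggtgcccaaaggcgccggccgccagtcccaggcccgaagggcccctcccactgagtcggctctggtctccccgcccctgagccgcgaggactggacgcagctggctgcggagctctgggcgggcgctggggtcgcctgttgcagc
DUT: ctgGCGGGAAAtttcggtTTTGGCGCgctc

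Searched on both strands of windows from 250 bases before to 50 bases after each start, CACGTG was in windows of 8 of the 31 genes, namely ATIC, SLC29A1, PPAT, PAICS, DHODH, DCK, NME1 and AMPD2. The share over all genes of the RefSeq table was 8.77%. These 27305 genes were not limited to those expressed in the cells, as the 31 are. A gene counted if any of its windows held the motif, so genes with more starts had more windows to match. The shares given here are therefore not of like genes, and enrichment was not tested. GGGCGG was found for 27 of the 31, against 48.3% of all genes. TTTGGCGC was found for DUT, DCK and GART, against 0.795% of all genes, and TTTCCCGC for DUT, TYMS and PRPS2, against 1.98%. Of the genes with CACGTG, 2 are among those that fell below and 6 are not.

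Of the 33 genes, 6 fell in LOC401312 and none rose. The 6 were ATIC in purine synthesis, CAD in pyrimidine synthesis, DTYMK, DUT and RRM2 in deoxynucleotide synthesis, and the transporter SLC29A1. Their log2 changes (LOC401312 over vector) lay between -0.43 and -0.17, that is, levels 0.741 to 0.891 times those of vector. In RNA of whole cultures, fewer cells that express a gene and less RNA per cell cannot be told apart. The tests were edgeR quasi-likelihood tests over all 19620 features with Benjamini-Hochberg adjustment and a threshold of 0.05, by which 4.58% of features were called lower and 4.13% higher. Among features with a mean of at least 1 FPKM (fragments per kilobase of transcript, scaled to library size), a level that every one of the 33 reached, 6.96% were called lower. At an unadjusted p under 0.05 there were 12 of the 33, all with a negative change. Counted in both directions, there were 4434 of all 19620 features and 3409 of the 11666 with a mean of at least 1 FPKM. How many of these features had a negative change was not counted, so the shares are not of like kind. DESeq2, which called 6.65% of its features lower, put 8 of the 33 lower and 0 higher.

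**Figure D1:**
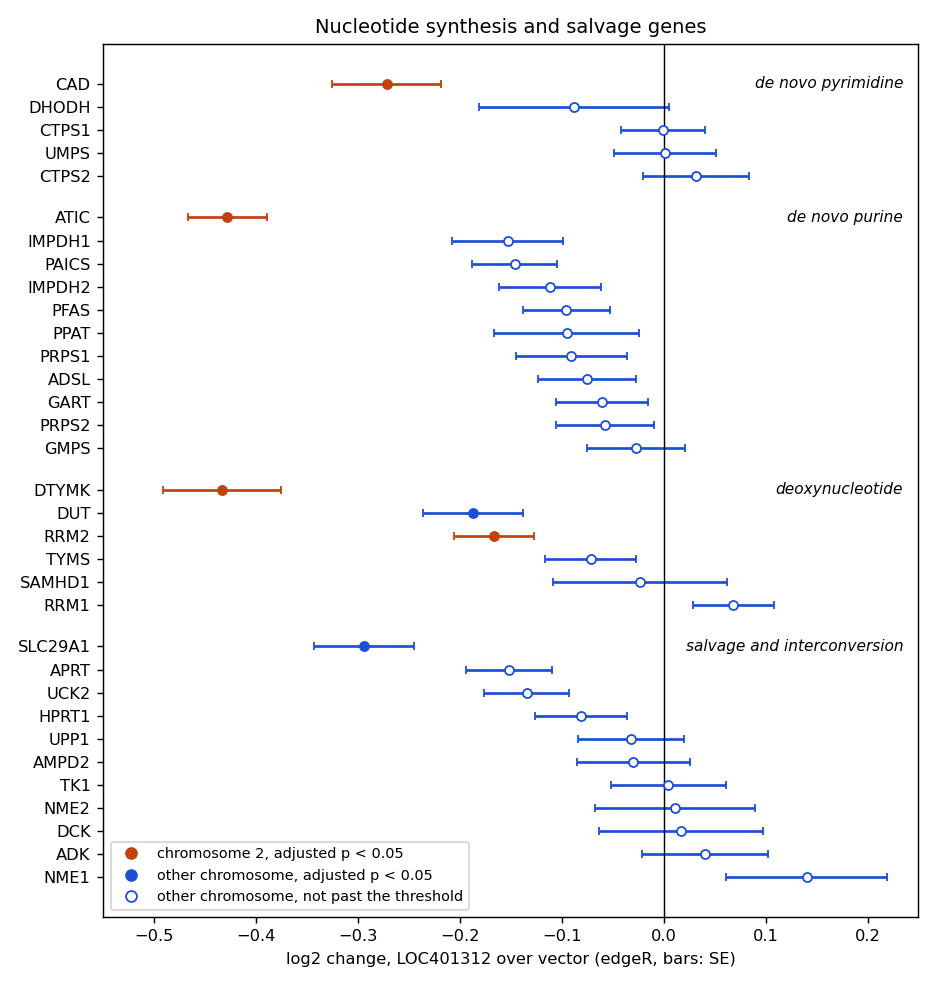
Log2 change of each of the 33 genes (x axis, LOC401312 over vector, bars: SE of the edgeR fit), by class. Filled points passed the threshold; the 4 genes on chromosome 2 all did, between -0.43 and -0.17, and all 11 de novo purine genes lie left of 0.

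Below the threshold for single genes, most of the list had small negative changes. The median over the 33 was -0.08, against -0.02 over tested features with a mean of at least 5 FPKM. Of the 33, 25 were negative (75.8%, against 55.5% of those features). DHODH, SAMHD1 and AMPD2 did not reach that mean. Among features with a mean of at least 1 FPKM, which all 33 reached, 52.0% were negative and the median was -0.007. By library, the median deviation of the 33 from their own means was -0.04, -0.04 and -0.07 in LOC401312 and 0.02, 0.07 and 0.04 in vector, on the log2 scale. The libraries of the groups did not overlap in this value, and the pooled SD within groups was 0.0215. Without the genes on chromosome 2 it was -0.03, -0.02 and -0.06 in LOC401312 and 0.01, 0.06 and 0.03 in vector. The gap was not particular to the 33. It was also found for the A549 and epithelial markers and for the proliferation genes given below (-0.05, -0.01 and -0.01 against 0.02, 0.06 and 0.03). For the wider list of other pathway genes given below, the libraries overlapped. In 13 of the 33 every LOC401312 library lay below every vector library, and in 0 every one lay above. Such a downward gap was found in 13.9% of all tested features and in 18.0% of those with a mean of at least 1 FPKM. These small negative values depend on the scaling between libraries, since the deposited FPKM values were shifted upwards in LOC401312, with a median log2 change of 0.12 over the features that reach a mean of 1 FPKM. There the median of the 33 was 0.05, which is below that shift.

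All 4 of the genes on chromosome 2 fell (ATIC, CAD, DTYMK and RRM2), and of the 29 on other chromosomes 2 fell (SLC29A1 and DUT). This has to be read against the chromosome, whose genes were lower as a whole. Among chromosome 2 features with a mean of at least 1 FPKM, 45.7% were called lower and the median log2 change was -0.24. Among such features elsewhere, 4.35% were called lower and the median was 0.00 (0.002). The median of the 4 was -0.35 and that of the 29 was -0.06.

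With the median of each chromosome removed from each library, 2.68% of all features were called lower, and 4 of the 33 were, namely ATIC, SLC29A1, DUT and PAICS. ATIC was at -0.20 (edgeR adjusted p = 0.0110) and SLC29A1 at -0.29 (adjusted p = 0.00649). DUT was at -0.20 (adjusted p = 0.0383) and PAICS at -0.17 (adjusted p = 0.0344). DTYMK was at -0.21 and did not pass (adjusted p = 0.0745), and CAD was at -0.05 (adjusted p = 0.694). RRM2 turned to 0.06 (adjusted p = 0.433). CAD and RRM2 were thus close to the level of their chromosome. ATIC and DTYMK lay below it by a similar amount, and of these ATIC alone passed.

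**Figure D2:**
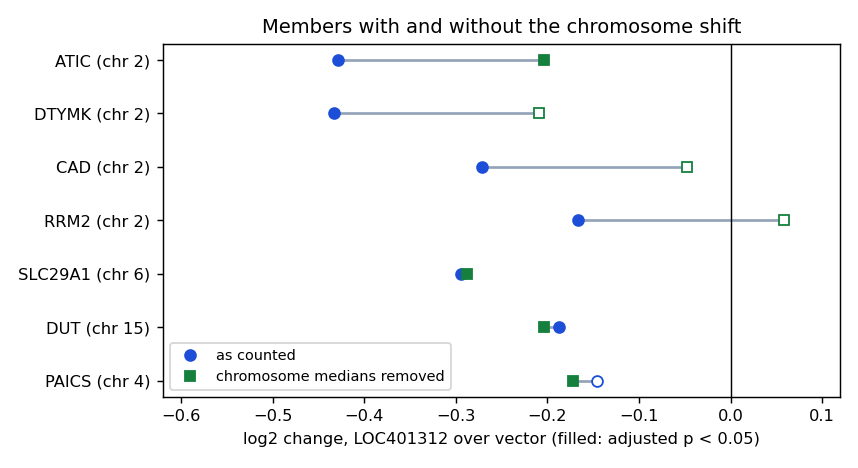
Log2 change (x axis, LOC401312 over vector) of 7 genes as counted (circles) and with the chromosome medians removed (squares), filled where the adjusted p is under 0.05. The 4 genes of chromosome 2 move right, RRM2 past 0, and SLC29A1, DUT and PAICS stay within 0.03 of their first value.

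In the pyrimidine route CAD was the 1 gene of 5 that passed the threshold. Among features with a mean of at least 1 FPKM, 6.96% were called lower, and among those on chromosome 2, where CAD lies, 45.7%. With chromosome medians removed, CAD was at -0.05 (edgeR adjusted p = 0.694). CAD (ENSG00000084774, chromosome 2, 27217369 to 27243943) had 156, 146 and 157 CPM in the LOC401312 libraries, against 184, 197 and 173 CPM in the vector libraries. Every LOC401312 library was lower than every vector library, with means of 153 ± 5.98 and 185 ± 12.03 CPM (SD, n = 3 each). The log2 change was -0.27 (SE 0.05, edgeR adjusted p = 0.0115), and without LOC401312 replicate 2 it did not pass (-0.24, adjusted p = 0.0706). The other 4 did not pass, and the values of 3 were close to 0. UMPS was at 0.00 (0.001; SE 0.05), CTPS1 at 0.00 (-0.0006; SE 0.04) and CTPS2 at 0.03 (SE 0.05), each with groups that overlapped. DHODH was at -0.09 (SE 0.09). Per length, CAD was the most abundant of the class, with 15.0 to 16.4 FPKM in LOC401312 and 16.0 to 18.3 FPKM in vector, and DHODH the least, at 1.91 to 2.32 FPKM and 1.83 to 2.13 FPKM.

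In the purine route ATIC fell and the other 10 genes did not pass. Among features with a mean of at least 1 FPKM, 6.96% were called lower. All 11 had a negative log2 change, with a median of -0.10. Without vector replicate 1, 10 of the 11 were negative. Of features with a mean of at least 1 FPKM, 52.0% were negative, with a median of -0.007. In the deposited FPKM values 3 of the 11 were negative, before their upward shift was taken off, and 11 of 11 after it. ATIC, which carries out the last steps to IMP (ENSG00000138363, chromosome 2, 215311956 to 215349763), had 143, 147 and 151 CPM in LOC401312 and 196, 197 and 199.6 CPM in vector. The gap between the groups was many times the spread within either, with means of 147 ± 3.81 and 198 ± 1.85 CPM (SD, n = 3 each). Its log2 change was -0.43 (SE 0.04, edgeR adjusted p = 0.000145), and it passed on leaving out any 1 library. With LOC401312 replicates 2 and 3, which carry placental transcripts, both left out, it was at -0.46 (edgeR adjusted p = 0.0276). That fit takes its spread from the vector libraries alone and assumes that the lone LOC401312 library varies like them. No other of the 33 passed in it, but the log2 changes of the other 5 that had fallen stayed close in size, at -0.37 for DTYMK, -0.32 for SLC29A1, -0.24 for CAD, -0.20 for RRM2 and -0.18 for DUT. In that comparison of 1 library with 3, 0.415% of features were called lower and 0.383% higher.

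PAICS, the bifunctional enzyme ahead of ADSL, came nearest to the threshold among the other purine genes. It had 239.9, 256 and 258 CPM in LOC401312 and 281, 283 and 271 CPM in vector, and the groups did not overlap. Its log2 change was -0.15 (SE 0.04, edgeR adjusted p = 0.0586), and it was called by DESeq2 (adjusted p = 0.00909). PPAT, which shares the stretch shown above with PAICS, was at -0.10 (SE 0.07, adjusted p = 0.495), with 37.0, 37.5 and 36.0 CPM in LOC401312 and 43.4, 35.6 and 39.0 CPM in vector, where the groups overlapped. Per length, PAICS was 4.69 to 5.19 times as abundant as PPAT in LOC401312 and 4.69 to 5.74 times in vector, so their ratio did not separate the groups.

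The remaining genes of the ring were GART at -0.06, PFAS at -0.10 and ADSL at -0.08, with adjusted p of 0.220 or more. PFAS overlaps CTC1 on the opposite strand over 439 bases, and reads there could not be told apart, because no source used here gives the strand setting of the counting. ADSL overlaps SGSM3 on the same strand over 16886 bases, an entry with 18.5% as many counts, and AL022238 over 40948 bases, with 5.05% as many, so its value is uncertain too. In the GMP branch IMPDH1 was at -0.15 (SE 0.05, adjusted p = 0.122), IMPDH2 at -0.11 (SE 0.05, adjusted p = 0.220) and GMPS, which aminates XMP to GMP, at -0.03. On the mean of all 6 libraries IMPDH2 was the most abundant purine gene per length, although in vector its mean of 40.9 FPKM lay below the 41.8 FPKM of ATIC. It had 43.7, 41.3 and 39.2 FPKM in LOC401312 and 41.4, 42.4 and 39.1 FPKM in vector. The groups overlapped in FPKM but not in CPM, where it had 136, 132 and 125 in LOC401312 and 137, 149.7 and 139 in vector. The suppliers of phosphoribosyl pyrophosphate, PRPS1 and PRPS2, were at -0.09 (SE 0.05) and -0.06 (SE 0.05) and did not pass.

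**Figure D3:**
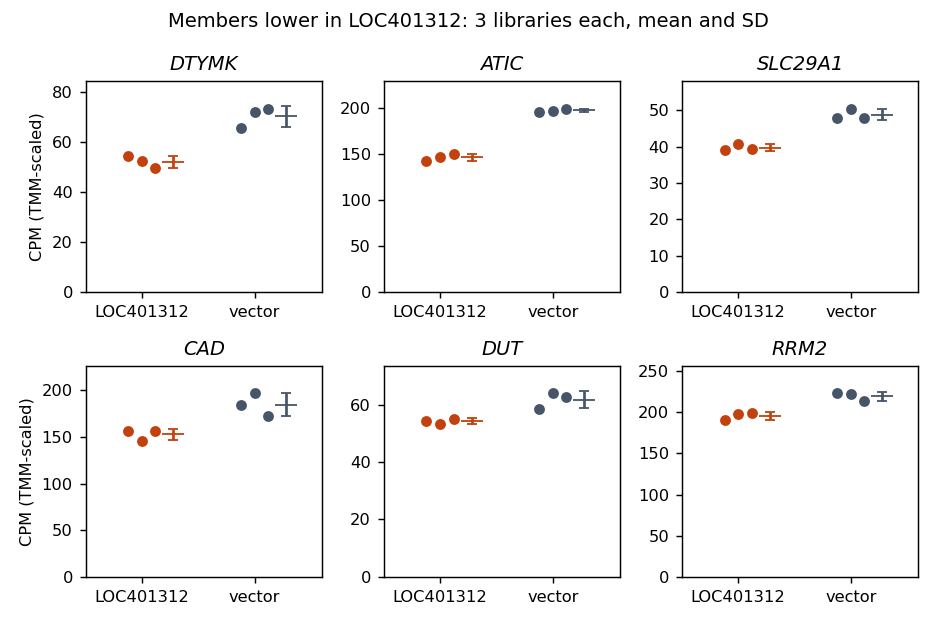
Level of the 6 genes that fell, in CPM from 0 (y axis), with 1 point per library and the mean and SD of 3 libraries beside them. In each panel the 3 LOC401312 libraries lie below the 3 vector libraries, with the widest gap relative to the spread for ATIC.

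Of the 6 genes of deoxynucleotide supply, 3 fell, where 6.96% of features with a mean of at least 1 FPKM were called lower. DTYMK and RRM2 lie on chromosome 2, where 45.7% of such features were called lower. With chromosome medians removed, DUT alone of the 6 passed. DTYMK, the kinase that turns dTMP into dTDP (ENSG00000168393, chromosome 2, 241675747 to 241686944), had 54.6, 52.4 and 49.6 CPM in LOC401312 and 65.6, 72.3 and 73.6 CPM in vector. No library of a group reached the range of the other. The log2 change was -0.43 (SE 0.06, edgeR adjusted p = 0.00150), close in size to that of ATIC, and the gene passed on leaving out any 1 library, but not without LOC401312 replicates 2 and 3 together (-0.37, adjusted p = 0.153). 

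DUT, which breaks down dUTP and so yields the dUMP used for thymidylate (ENSG00000128951, chromosome 15, 48331011 to 48343373), had 54.4, 53.1 and 55.1 CPM in LOC401312 and 58.4, 64.0 and 62.8 CPM in vector. The groups did not overlap, and the log2 change was -0.19 (SE 0.05, edgeR adjusted p = 0.0424). RRM2, the small subunit of ribonucleotide reductase (ENSG00000171848, chromosome 2), had 190.1, 197 and 199 CPM in LOC401312 and 223, 222 and 213 CPM in vector. Its groups did not overlap either, and its log2 change was -0.17 (SE 0.04, edgeR adjusted p = 0.0269). DUT and RRM2 were the calls with the least margin. Each passed on leaving out vector replicate 1 and lost the call on leaving out any of the other 5 libraries, with adjusted p up to 0.180 for DUT and up to 0.102 for RRM2.

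RRM1, the large subunit of the reductase, did not pass. It had 187, 191 and 190.7 CPM in LOC401312 and 178, 187 and 176 CPM in vector, a log2 change of 0.07 (SE 0.04, edgeR adjusted p = 0.358), and the groups overlapped. On the deposited FPKM values, where 18.0% of features were called higher and 3.12% lower, limma called RRM1 higher (adjusted p = 0.0205) and ATIC and DTYMK lower, before the shift of those values was taken off. Per length, RRM2 stood at 0.471, 0.478 and 0.482 of RRM1 in LOC401312 and at 0.578, 0.548 and 0.559 in vector. The groups did not overlap in this ratio, which does not depend on the scaling between libraries but holds the shift of chromosome 2, where RRM2 lies. With chromosome medians removed, RRM2 was at 0.06 and RRM1 at 0.07. Within a library that setting moves all genes of chromosome 2 by the same amount, so the closer values follow from its construction. The reason for the gap between the subunits was not tested.

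TYMS, which methylates dUMP to dTMP, was the most abundant gene of the class per length on the mean of all 6 libraries, although in LOC401312 its mean of 38.2 FPKM lay below the 39.1 FPKM of RRM1. It had 38.9, 39.3 and 36.5 FPKM in LOC401312 and 39.5, 34.8 and 36.2 FPKM in vector. Its groups overlapped, and its log2 change in the counts was -0.07 (SE 0.04, edgeR adjusted p = 0.400). TYMS overlaps ENOSF1 on the opposite strand, so its count is uncertain. SAMHD1, which breaks down dNTPs, was at -0.02 (SE 0.09) and low, at 2.05 to 2.47 FPKM over the 6 libraries.

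Among the 11 genes of salvage and interconversion, SLC29A1 alone fell. Of features with a mean of at least 1 FPKM, 6.96% were called lower, so this count is near the background. SLC29A1 encodes ENT1, the transporter that lets nucleosides pass the plasma membrane, and lies on chromosome 6 (ENSG00000112759, 44219553 to 44234142). The median log2 change of chromosome 6 was -0.01. It had 39.1, 40.7 and 39.5 CPM in LOC401312, against 47.9, 50.5 and 48.0 CPM in vector. The groups were separated by more than their spread, with means of 39.8 ± 0.828 and 48.8 ± 1.47 CPM (SD, n = 3 each). The log2 change was -0.29 (SE 0.05, edgeR adjusted p = 0.00493), and it passed on leaving out any 1 library (adjusted p up to 0.0294), but not without LOC401312 replicates 2 and 3 together (-0.32, adjusted p = 0.175).

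The enzymes that salvage free bases were APRT for adenine and HPRT1 for hypoxanthine and guanine. APRT had 70.2, 72.5 and 69.7 CPM in LOC401312 and 76.9, 79.5 and 79.6 CPM in vector, with no overlap. It missed the threshold in edgeR (-0.15, SE 0.04, adjusted p = 0.0549), passed without vector replicate 1 (adjusted p = 0.0408) and was called by DESeq2 (adjusted p = 0.0411). HPRT1 was at -0.08 (SE 0.05) and did not pass. Of the nucleoside kinases, UCK2, which phosphorylates uridine and cytidine, was at -0.13 (SE 0.04, adjusted p = 0.080). The thymidine kinase TK1 was at 0.00 (0.005; SE 0.06), the deoxycytidine kinase DCK at 0.02 (SE 0.08) and the adenosine kinase ADK at 0.04 (SE 0.06), all with overlapping groups. UPP1, the uridine phosphorylase, and AMPD2, the AMP deaminase, were both at -0.03.

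**Figure D4:**
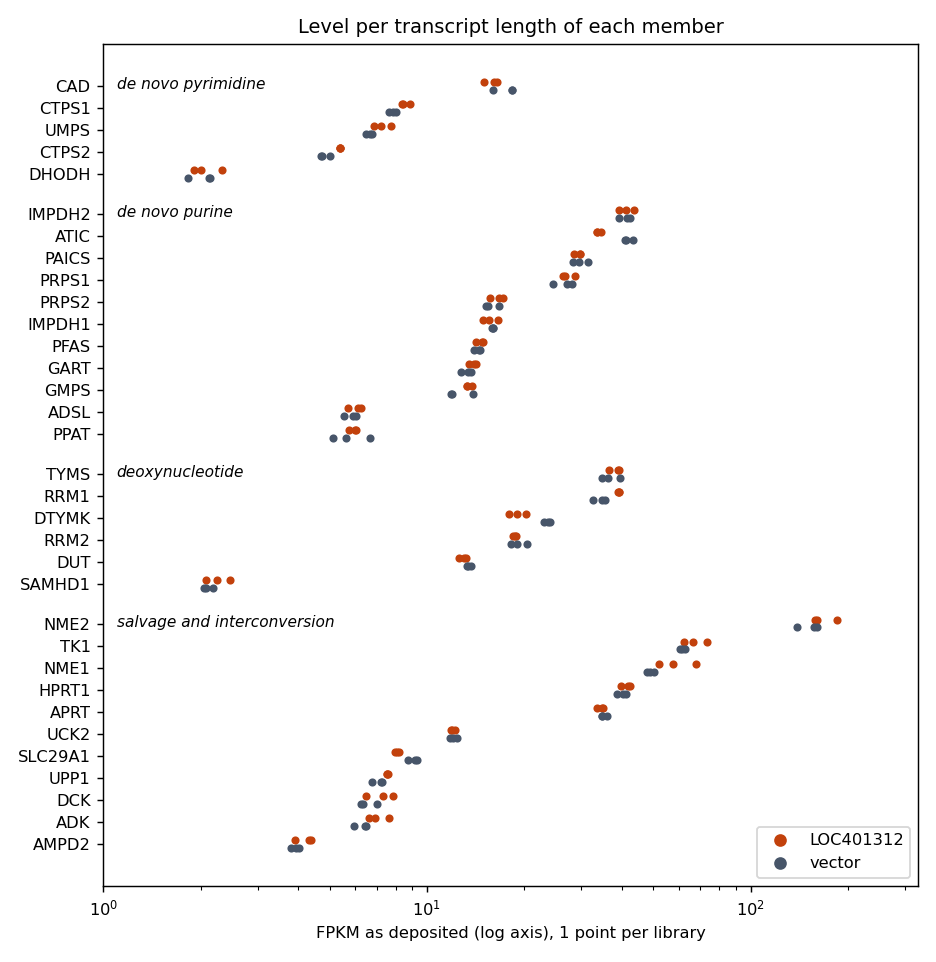
Deposited FPKM of each gene on a log axis, 1 point per library, by class and in order of level, LOC401312 above vector. Levels run from about 2 FPKM for DHODH and SAMHD1 to 139 to 185 FPKM for NME2, and the spread between genes is far wider than that between groups.

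NME2 and NME1, the nucleoside diphosphate kinases that make triphosphates, stood among the most abundant of the 33 per length. NME2 had 185, 158 and 161 FPKM in LOC401312 and 139, 157 and 161 FPKM in vector, and NME1 had 67.6, 52.2 and 57.5 FPKM in LOC401312 and 47.8, 48.9 and 50.4 FPKM in vector. In the counts NME1 was at 0.14 (SE 0.08, edgeR adjusted p = 0.338) and NME2 at 0.01 (SE 0.08, adjusted p = 0.957). Both values are uncertain, since a readthrough entry, NME1-NME2, spans both genes. That entry held 3579, 7330 and 1950 counts in LOC401312, against 10716, 9032 and 8409 counts in vector, and so 4.07% to 14.01% of the reads of the locus in LOC401312 and 15.7% to 19.2% in vector. Its groups did not overlap, but it did not pass (-1.21, SE 0.35, adjusted p = 0.0605). With the 3 entries summed, the level was 830.2, 767 and 718 CPM in LOC401312 and 753, 862 and 869.9 CPM in vector, and the log2 change was -0.10 (SE 0.06, edgeR adjusted p = 0.405). The sum was thus of the other sign than NME1 alone.

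**Figure D5:**
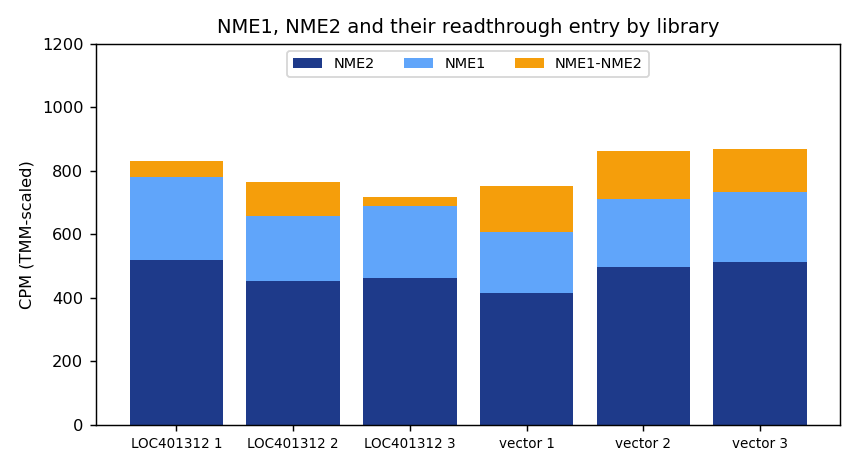
CPM from 0 (y axis) of NME1, NME2 and the readthrough entry NME1-NME2, stacked for each library (x axis). The readthrough part is narrower in the LOC401312 libraries (29.2 to 107 CPM) than in the vector libraries (137 to 151 CPM), and the total heights overlap.

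A wider list of 66 other genes of nucleotide metabolism, CPS1 included, was set beside the 33. Of these 57 were tested, 4 rose and 2 fell, with a median of -0.04. Over all features 4.13% were called higher and 4.58% lower, so these counts are near the background. CPS1 had 126, 121 and 121 CPM in LOC401312 and 58.6, 56.4 and 59.02 CPM in vector, a log2 change of 1.08 (SE 0.04, edgeR adjusted p = 1.04e-06). It lies on chromosome 2, where ATIC and CAD fell, and with chromosome medians removed it was at 1.30. Per length, CPS1 stood at 0.618, 0.635 and 0.591 of CAD in LOC401312 and at 0.243, 0.220 and 0.262 of CAD in vector. The RNA of the mitochondrial enzyme of carbamoyl phosphate thus came closer in level to that of the cytosolic one. These are RNA levels, and protein was not read.

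The other 3 that rose were XDH, DPYD and NT5E. XDH, which oxidises hypoxanthine to uric acid, had 8.18, 8.10 and 8.90 CPM in LOC401312 and 4.19, 4.13 and 5.07 CPM in vector (0.91, SE 0.13, edgeR adjusted p = 0.00197). DPYD, the first enzyme of uracil and thymine breakdown, had 19.0, 19.4 and 20.3 CPM in LOC401312 and 14.2, 10.96 and 12.9 CPM in vector (0.62, SE 0.10, edgeR adjusted p = 0.00458). NT5E, which makes adenosine from AMP outside the cell, had 29.1, 30.6 and 31.2 CPM in LOC401312 and 24.1, 24.6 and 21.4 CPM in vector (0.37, SE 0.07, edgeR adjusted p = 0.0107). For each of them every LOC401312 library was higher than every vector library. NT5E lost its call on leaving out LOC401312 replicate 2 (adjusted p = 0.0523) or 3 (adjusted p = 0.0517), and without both of these CPS1 was the 1 gene of the wider list that passed. In that fit of 1 library against 3, the log2 changes of the others stayed close in size, at 0.88 for XDH, 0.59 for DPYD and 0.32 for NT5E.

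Among the genes that fell was DGUOK, the mitochondrial deoxyguanosine kinase on chromosome 2. It had 41.9, 42.0 and 43.2 CPM in LOC401312 and 50.4, 55.5 and 55.3 CPM in vector (-0.34, SE 0.05, edgeR adjusted p = 0.00327), and the groups did not overlap. With chromosome medians removed it was at -0.12 and did not pass (adjusted p = 0.251).

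Several of the 33, such as RRM2, TYMS and TK1, are known to be made mainly by dividing cells, so 32 genes of proliferation are given beside them. None rose and 4 fell (MCM6 and BUB1 on chromosome 2, CCNB1 and PLK1 elsewhere), and their median was -0.07, where 4.58% of all features and 6.96% of those with a mean of at least 1 FPKM were called lower. Of the 32, 23 were negative (71.9%, against 75.8% of the nucleotide genes and 52.0% of features with a mean of at least 1 FPKM). In 10 every LOC401312 library lay below every vector library, in 0 above. Such a downward gap was found in 18.0% of features with a mean of at least 1 FPKM. MKI67 was at 0.08 (SE 0.05), with 469, 466 and 475 CPM in LOC401312 and 474, 453 and 412 CPM in vector. PCNA was at -0.08 (SE 0.04) and TOP2A at 0.02 (SE 0.05), and none of these 3 passed. The groups overlapped in all 3. The part of cell cycling in the values of the 33 was not tested.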

How the data were processed

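The authors deposited 1 table with raw counts per gene, whole numbers with no normalization, and FPKM, which the authors scaled by gene length and library size, per the file headers. Per the submitters' processing notes, cutadapt 1.9 and FastQC were used with GRCh38 (hg38). The sources used here do not give the aligner, counting tool, annotation release or strand setting. Depth was 60971105 to 73994619 counts per library, and the number of libraries limits the precision more than the depth does.

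Libraries were grouped by title. Within groups, each pair of libraries differed beyond sampling noise, with 13.7 to 22.9 as chi-square divided by its degrees of freedom where mean counts reached 50. Counts were tested with edgeR 4.0.16 (TMM, filterByExpr, group as the only term; R 4.3.3), two-sided, with Benjamini-Hochberg adjustment over all 19620 genes tested and a threshold of 0.05. SE is the log2 change over the square root of F. The edgeR script was tested on simulated data. Alternatives were DESeq2 1.42.0, limma 3.58.1 on log2(FPKM + 0.1) with other pseudocounts and filters, other scalings and filters of counts, a replicate block, removal of chromosome medians (from genes averaging 4 CPM or more) and left-out libraries.

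The members and lists were chosen with earlier results of these data known. All 33 members are named. Values in every library are given for those past the threshold, and for the most abundant and the most changed gene of each class. Of the wider list, genes past the threshold are named, except 1 that is not reported here, and MKI67, PCNA and TOP2A of the proliferation genes. Other per-library values were chosen after they were seen.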

Additional observations from a re-analysis of the deposited data

How the results depend on the processing

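The 6 members called lower became 2 with limma on log2(FPKM + 0.1), log2(FPKM + 1), log2(FPKM + 0.01) or without a filter, and 1 without LOC401312 replicates 2 and 3. The 6 became 4, without DUT and RRM2, with library totals only or with edgeR without a filter. Over all features 754 of 19620 and 577 of 33270 were called lower in these fits. With DESeq2 or with features of at least 1 FPKM the 6 became 8. The number called higher, 0, became 1 with limma at the pseudocounts of 0.1, 1 and 0.01. The members' median, -0.08, turned positive in the uncentred FPKM values (0.05003 at a pseudocount of 0.1 with or without a filter, 0.0435 at 1 and 0.0508 at 0.01), all below the shift of those values, and was -0.0512 with library totals only. With FPKM centred, 6 members were lower and the median was -0.06. Leaving out 1 library gave 3 (LOC401312 replicate 2) to 7 (vector replicate 1) members lower and a median of -0.08 to -0.06. Over all features 439 of 20386 and 1042 of 20311 were called lower in those 2 fits. RRM2 reversed to 0.0579 with chromosome medians removed, by the construction of that setting. Of the wider list, the 4 called higher became 13 in the filtered FPKM fits and 7 with chromosome medians removed. Over all features 2108 of 11685 were called higher with limma on log2(FPKM + 0.1), and 682 of 19620 with chromosome medians removed. The 2 called lower became 4 with DESeq2 or with features of at least 1 FPKM. They became 1 without a filter, with the replicate block, in the 4 uncentred FPKM fits or with chromosome medians removed. On leaving out 1 library they were 1 (LOC401312 replicate 2, vector replicate 2 or 3) to 3 (vector replicate 1). Over all features 6.65% were called lower with DESeq2, 3.12% with limma on log2(FPKM + 0.1) and 2.68% with chromosome medians removed. The replicate numbers do not pair the libraries (correlations of deviations -0.09, 0.01 and -0.01 for numbers 1, 2 and 3, and not every library correlated best with its own number). The replicate block left 4 members lower, without DUT and RRM2, and over all features 509 higher and 579 lower, against 811 and 899. Apart from those shifts, the cause of each change was not tested.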
